A study of Mus musculus with 12 samples.

Results

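The Schlafen genes are a family of 8 listed members in the mouse, Slfn1, Slfn2, Slfn3, Slfn4, Slfn5, Slfn8, Slfn9 and the pseudogene Slfn10-ps. They were described here in RNA sequencing of gut epithelial cells, where they make up 8 of the 14244 gene rows. The members were chosen by name, but the family was proposed for description after the difference between genotypes had been seen in these libraries. The genotype differences of the members are therefore given as a description, with no p-value of their own, and counts of calls among them are given only beside the share over all genes. Of the 8 members, 7 had a mean of at least 10 normalized counts over the libraries and entered the fit across 12808 genes, and Slfn3 did not.

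The libraries came from 5 wild type (WT) and 7 Chd8L+/- mice, which were C57BL/6 males of 8 weeks and littermates. Chd8L+/- mice carry in every cell 1 allele of the chromatin remodeler gene Chd8 from which exons of the long isoform are deleted, and the comparison asks how this changes transcription in the gut. The labels name no treatment. Epithelial cells were shaken off washed intestinal sections with EDTA and DTT, without a sort, so each library is a bulk sample that can hold other cells of the mucosa. In such a sample, fewer cells of a type and less RNA per cell cannot be told apart.

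Schlafen proteins take their name from the German word for sleep, because the first members were found to slow the growth of developing T cells. All share a core domain related to nucleases and nucleic acid binding, and the long members add a helicase-like part at the other end of the protein with a Walker A motif, the loop that holds the phosphates of a nucleotide. Several are interferon-stimulated genes, and the long human relative SLFN11 blocks stressed replication forks and cleaves transfer RNA.

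Reads assigned to the genes, recovered from the deposited values, numbered between 15691662 and 20761315 per library, and 1 read was worth between 0.864 and 1.25 normalized counts. Chd8 itself was at 953 ± 85.5 normalized counts in WT (SD, n = 5) and 1297 ± 123 in Chd8L+/- (SD, n = 7), with every Chd8L+/- library above every WT library, replicate 2 included. Because a row holds reads from all exons of Chd8, those of the deleted exons are not seen apart, and the value does not check the labels. Chd8L+/- is used here for the libraries labelled so. One library stood apart from its label: on the leading principal component, with 39.7% of the variance, WT replicate 2 was at 41.0, the other 4 WT libraries were between -67.5 and -26.2, and the Chd8L+/- libraries were between 0.260 and 42.7. Values without it are given beside the results that it moves most.

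The 8 genes lie together on chromosome 11 (chr11:82951349-83215154 in mm10, a stretch of 263806 bases). Slfn5 comes first and is on the plus strand. Slfn9, Slfn8 and Slfn10-ps follow, all 3 on the minus strand, and Slfn2, Slfn1, Slfn4 and Slfn3 follow on the plus strand. The longest annotated transcripts run from 1664 bases for Slfn2 to 5979 bases for Slfn5. The proteins range from the short Slfn1 (337 codons) and Slfn2 (378 codons) over Slfn4 (602 codons) and Slfn3 (640 codons) to Slfn5 (884 codons), Slfn8 and Slfn9 (910 codons each). Slfn10-ps is annotated as a transcribed pseudogene with no coding part. Annotated antisense RNAs lie across Slfn5 (Slfn5os) and Slfn2 (Gm20234). The use of strand in the counting is not given in the sources used here, so reads of these pairs cannot be told apart.

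The minus-strand genes are close copies, and this bears on every value given for them. The longest run of bases identical between Slfn9 and Slfn10-ps is 236 bases of the mature transcript, longer than a read, and is shown because a read that starts and ends within it fits both genes equally well. It spans exons 4 and 5 of Slfn9 (chr11:82981956-82982358, minus strand, mm10) and coding bases 1718 to 1953. The capitals in the line for Slfn9 mark coding bases 1795 to 1818, the 24 bases that encode its 1 match to the Walker A pattern. The capitals in the line for Slfn8 mark the 6 bases at which Slfn8 differs.

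Slfn9 and Slfn10-ps: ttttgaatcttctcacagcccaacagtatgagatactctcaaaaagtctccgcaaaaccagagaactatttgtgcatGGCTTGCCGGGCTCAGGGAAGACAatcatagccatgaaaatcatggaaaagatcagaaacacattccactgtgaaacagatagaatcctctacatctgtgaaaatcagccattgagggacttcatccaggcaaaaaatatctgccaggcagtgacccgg

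Slfn8: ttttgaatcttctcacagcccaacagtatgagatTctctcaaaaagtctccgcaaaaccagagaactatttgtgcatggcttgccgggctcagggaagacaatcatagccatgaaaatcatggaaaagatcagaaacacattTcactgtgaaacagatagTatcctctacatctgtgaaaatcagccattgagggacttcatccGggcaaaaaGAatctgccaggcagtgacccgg

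The 24 bases of the Walker A match are the same in all 3 lines, so they do not tell the copies apart. Over a longer part of the transcripts the copies differ more. Of the 75-base windows in the longest Slfn10-ps transcript, as long as the reads, 11.5% were found without a mismatch in the transcript of another gene and 36.1% with up to 2 mismatches. For Slfn8 these shares were 7.52% and 28.1%, and for Slfn9 they were 6.06% and 22.1%. Matches with mismatches were sought only among Schlafen genes and the pseudogene Gm11427, so the shares over all genes with up to 2 mismatches are lower bounds. Within 2 mismatches, 31.3% of the Slfn10-ps windows were found in Slfn9 and 22.5% in Slfn8. Slfn3 and Slfn4 are also close to each other and to the pseudogene Gm11427, with 37.6% and 23.7% of windows shared within 2 mismatches. Slfn5 shared 8.81% of its windows, with many genes outside the family and without a mismatch. Slfn1 (1.34%) and Slfn2 (9.25%) shared few. The values of Slfn3, Slfn4, Slfn8, Slfn9 and Slfn10-ps are uncertain to the extent that the counting gave such reads to one copy or dropped them, which is not stated.

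The promoters are shown because interferon-stimulated genes carry a recognisable element near their start. Windows from 250 bases before to 50 after the annotated start (RefSeq, GRCm38.p6) were found for 7 of the 8 genes, all but Slfn10-ps. They were searched on both strands for GAAANNGAAA, the core of the interferon-stimulated response element, which reads TTTCNNTTTC on the other strand. A match was found in Slfn9, Slfn8 and Slfn5, and in 1131 of all 32851 promoter windows (3.44%). In the stretches printed, read along each gene's own strand, capitals mark the match. It begins 45 bases before the start of Slfn9 (window chr11:82991781-82992080, minus strand), 48 before that of Slfn8 (chr11:83020761-83021060, minus strand) and 155 before that of Slfn5 (chr11:82951852-82952151, plus strand). Slfn8 has another annotated start (window chr11:83020673-83020972, minus strand), and the same match begins 136 bases before that start.

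Slfn9: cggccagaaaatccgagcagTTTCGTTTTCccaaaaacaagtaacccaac

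Slfn8: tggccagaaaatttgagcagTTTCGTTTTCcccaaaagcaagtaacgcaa

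Slfn5: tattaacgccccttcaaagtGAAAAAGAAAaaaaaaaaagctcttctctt

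Slfn9 and Slfn8 have the same 10 bases in capitals, and their whole windows are identical at 248 of 292 aligned bases (84.9%). The windows of Slfn1, Slfn2, Slfn3 and Slfn4 hold no match to these letters. The shorter form AANNGAAA, which lies within the longer one, was in the windows of all 7 genes and in 23.9% of all windows. A match describes the letters only.

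Every member but Slfn1 had a higher mean in Chd8L+/- libraries. The ratio of means was highest for the minus-strand genes and Slfn5, the long member on the plus strand. Slfn9, a long member with the helicase-like part, was at 172, 494, 39.3, 49.6 and 105 normalized counts in WT replicates 1 to 5. In Chd8L+/- it ranged from 249.6 over a median of 410.4 to 603. Except for WT replicate 2, each WT library was below each Chd8L+/- library. The means were 172 ± 188 in WT (SD, n = 5) and 407 ± 124 in Chd8L+/- (SD, n = 7), a log2 fold change of 1.79 (SE 0.50) on the log2(value + 1) scale.

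Slfn10-ps, the pseudogene copy, was at 24.0, 30.4, 17.1, 12.9 and 22.6 normalized counts in the WT libraries, in replicate order. In Chd8L+/- its lowest, median and highest values were 38.8, 48.0 and 54.5. The groups did not overlap, and the highest WT value was again that of replicate 2. Its log2 fold change was 1.15 (SE 0.23), from means of 21.4 ± 6.72 and 47.2 ± 5.77.

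Slfn8, whose protein is as long as that of Slfn9, was at 45.3, 49.7, 27.2, 14.9 and 13.8 normalized counts in WT and between 37.7 and 70.2 in Chd8L+/-, with a median of 54.2. WT replicates 1 and 2 lay within the Chd8L+/- range and the other 3 lay beneath it. The means of 30.2 ± 16.8 and 54.1 ± 11.5 correspond to a log2 fold change of 0.98 (SE 0.33).

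Because these copies share sequence, their sum was taken as well. It was 242, 574, 83.7, 77.4 and 142 normalized counts in WT, and 343, 502 and 712 as the lowest, median and highest in Chd8L+/-. The sum keeps the pattern of Slfn9, which makes up most of it, with WT replicate 2 inside the Chd8L+/- range. Its mean was 224 ± 207 in WT and 509 ± 123 in Chd8L+/-, a ratio of 2.27 that does not depend on how reads were split among these 3 genes. Without WT replicate 2, which held the highest WT sum, the WT mean was 136 ± 76.1 (SD, n = 4) and the ratio 3.74.

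Slfn5, the plus-strand long member, whose human counterpart is interferon-stimulated, overlapped more. It was at 37.3, 22.3, 14.1, 25.8 and 17.6 normalized counts in WT and ranged from 12.7 over 40.9 to 86.8 in Chd8L+/-. The single lowest value of all 12 libraries was a Chd8L+/- library (replicate 6), while 5 of the 7 were above the highest WT value. Group means were 23.4 ± 8.96 in WT and 43.6 ± 23.6 in Chd8L+/- (SD). Their ratio was 1.86, beside 1.79 for Slfn8, and the log2 fold change was 0.75 (SE 0.40).

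Slfn4, of intermediate length and known mostly from monocytes and other myeloid cells, split the Chd8L+/- group. WT libraries were close together, at 203, 208, 227, 147 and 232 normalized counts, and Chd8L+/- libraries ran from 129 over 297 to 643. Replicates 4 and 5 stood at 642 and 643, replicates 3 and 7 were also above all WT libraries, and replicates 1 and 6 were below all of them. The means were 203 ± 33.9 in WT and 334 ± 225 in Chd8L+/- (SD), a ratio of 1.64. The SD of the log2 values was 0.99 in Chd8L+/- and 0.26 in WT, and the log2 fold change was 0.45 (SE 0.40).

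Slfn3, its neighbour of intermediate length, studied in the differentiation of intestinal epithelium, was barely present. It was at 5.33, 1.01, 3.02, 6.94 and 11.3 normalized counts in WT and between 2.22 and 16.8 in Chd8L+/-, with a median of 6.22. These are few reads per library, the groups overlapped over most of their range, and no fold change was fitted.

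The short members showed no separation. Slfn2, which holds T cells in quiescence, was at 240.0, 178, 309, 204 and 265 normalized counts in WT and ranged from 155 over 260.4 to 429 in Chd8L+/-. Slfn1, the founding growth inhibitor of thymocytes, was at 6.22, 18.3, 8.07, 6.94 and 28.8 in WT and ranged from 5.18 over 11.5 to 21.5 in Chd8L+/-. Of the Chd8L+/- libraries, 2 were above and 2 beneath the WT range of Slfn2, and 0 were above and 2 beneath that of Slfn1. The log2 fold changes were 0.10 (SE 0.24) for Slfn2 and -0.11 (SE 0.47) for Slfn1.

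**Figure D1:**
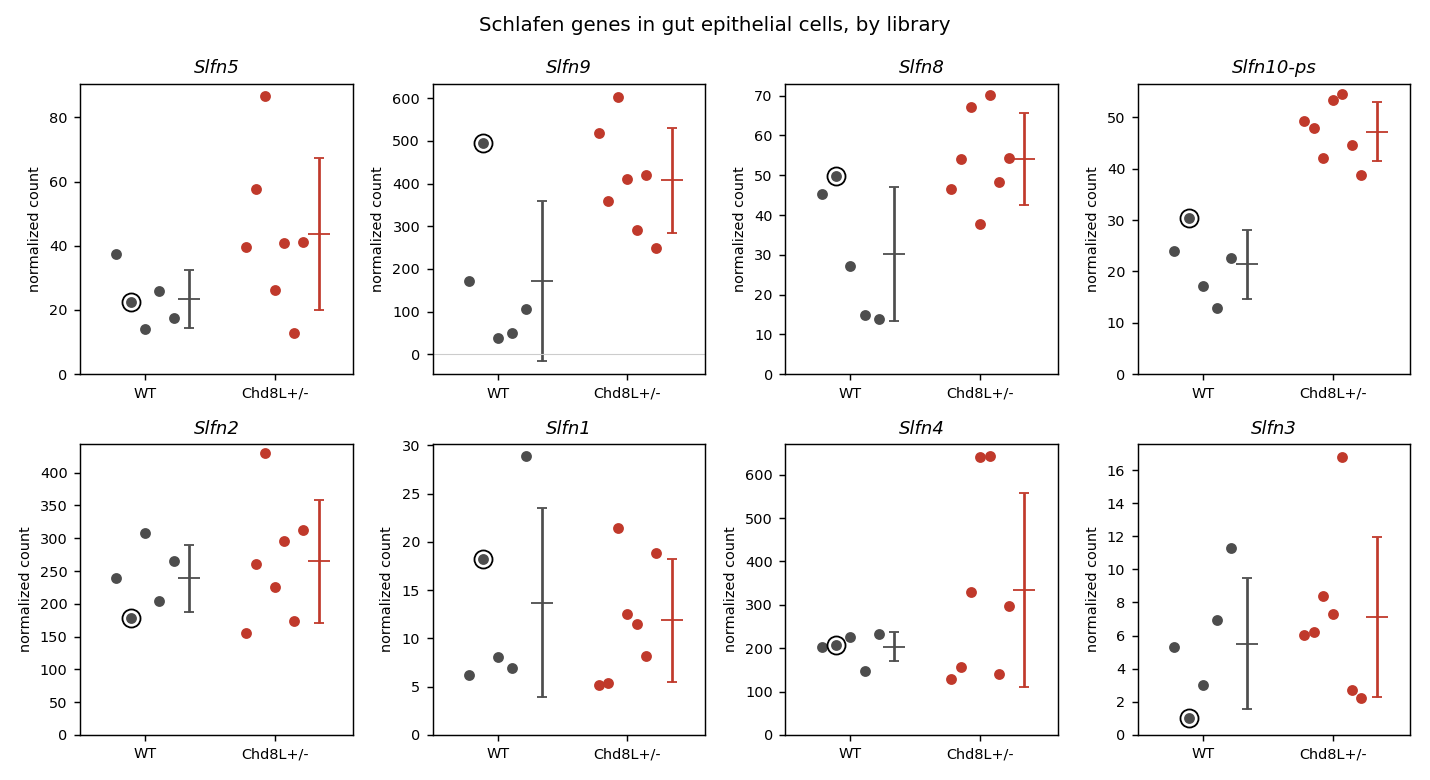
Normalized counts of the 8 Schlafen genes (vertical axes, linear, each from 0 or below) in 5 WT (grey) and 7 Chd8L+/- (red) libraries, 1 point per library, with the mean and SD beside the points and a ring around WT replicate 2. The groups of Slfn10-ps do not overlap, WT replicate 2 lies inside the Chd8L+/- range of Slfn9, and Slfn4 has 2 Chd8L+/- libraries above 640.

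By place in the cluster, the 3 neighbours on the minus strand had the 3 highest log2 fold changes, Slfn5 on their outer side came next, and Slfn2 and Slfn1 on their inner side were the nearest to 0. This is an order of 7 values from the contrast by which the family was proposed. Over the 7 members the median log2 fold change was 0.75, with 6 above 0 and 1 beneath. Over all 12808 genes the median was 0.014 and 51.4% were above 0. A log2 fold change of at least 1 was found for 2 members, Slfn9 and Slfn10-ps, and for 2.94% of all genes. Ranked from the highest log2 fold change, Slfn9 was at place 39, Slfn10-ps at 228 and Slfn8 at 400.

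**Figure D2:**
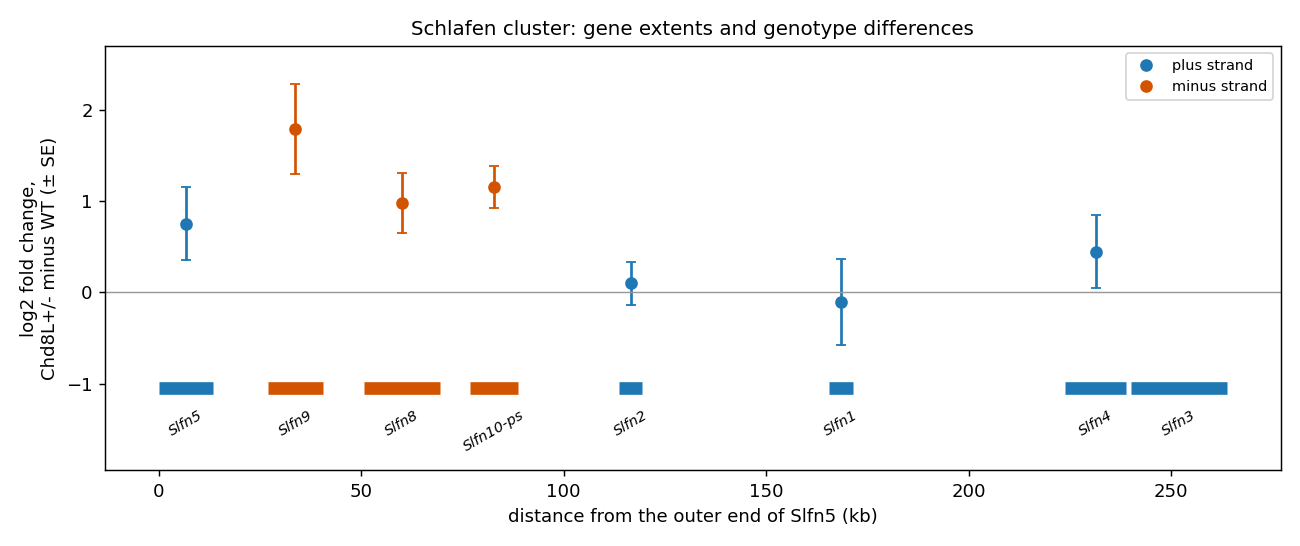
Extent of each Schlafen gene (bars) by distance in kilobases from the outer end of Slfn5, and above it the log2 fold change between genotypes with its standard error (points and whiskers, 7 genes, Slfn3 not fitted), coloured by strand. The 3 minus-strand genes lie side by side at 1.79, 0.98 and 1.15, and Slfn2 and Slfn1 lie near 0.

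No member passed an adjusted p of 0.05 in limma, where 3 of all genes (0.0234%) did. With an unadjusted p at or under 0.05, 3 members (Slfn8, Slfn9 and Slfn10-ps) were among the 12.5% of all genes that were higher in Chd8L+/-, and 0 were among the 11.8% that were lower. One member, Slfn10-ps, had all Chd8L+/- libraries above all WT libraries, as did 0.242% of all genes. On recovered reads, edgeR called 0 members and 0.039% of genes, and DESeq2 called 1 member, Slfn10-ps, and 6.44% of the genes it tested. These counts come from the contrast by which the family was proposed and carry no weight of their own.

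Of the libraries left out in turn, WT replicate 2 moved these counts most. Without it limma called 27.6% of all genes and, among the members, Slfn8, Slfn9 and Slfn10-ps. The WT mean of Slfn9 became 91.7 ± 61.2 (SD, n = 4) and the ratio of means 4.44 in place of 2.37. The library left out held the highest WT value of Slfn8, Slfn9 and Slfn10-ps, so their WT means fall without it. The log2 fold changes without this library were 2.32 for Slfn9, 1.29 for Slfn10-ps and 1.20 for Slfn8.

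Library names hold a letter and a number whose meaning is not given in the sources used here. With the letter as a block, limma called 3.52% of all genes and, among the members, Slfn9 and Slfn10-ps. The log2 difference of Slfn9 was 0.77 among libraries of letter A, 1.99 for B and 3.41 for C, and letter D held a Chd8L+/- library alone. For Slfn10-ps it was 0.79, 1.62 and 1.41, and for Slfn8 it was 0.084, 2.22 and 0.84. Each of these rests on 1 to 3 libraries a side and all are above 0. For Slfn4 the sign was not the same throughout, with 1.16, 1.80 and -0.68.

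Set side by side per kilobase of the longest transcript, a quantity the genotype contrast does not use, Slfn2 had the highest level with a mean of 153 normalized counts per kilobase over the 12 libraries. Slfn4 (70.6) and Slfn9 (53.6) followed, then Slfn8 (11.001), Slfn10-ps (10.1), Slfn1 (6.77), Slfn5 (5.89) and Slfn3 (2.27). Slfn2 ranked first in 11 libraries, and Slfn4 did in Chd8L+/- replicate 4. Slfn3 ranked last in all libraries but WT replicate 5. The order of the low genes was not the same by genotype, since the WT mean of Slfn1 (7.33) was above that of Slfn10-ps (5.91), and in Chd8L+/- the mean of Slfn5 (7.29) was above that of Slfn1 (6.37).

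Neighbours in this order were compared within libraries by a two-sided exact sign-flip permutation test, adjusted over the 7 pairs. The order was taken from the same libraries, so the direction of each difference was largely set beforehand. Both genotypes were pooled, so the spread also holds differences between them. Slfn2 exceeded Slfn4 by 1.26 on the log2 scale (SD 0.66, in 11 of 12 libraries, permutation adjusted p = 0.00342). Slfn9 exceeded Slfn8 by 1.92 (SD 0.86, in 12 of 12, permutation adjusted p = 0.00342, from the smallest p this test can give, 0.000488). Slfn5 exceeded Slfn3 by 1.06 (SD 0.77, in 11 of 12, permutation adjusted p = 0.00342). The order within the pairs between these steps did not hold up against the spread over libraries. The log2 differences there were 0.57 (SD 1.37) for Slfn4 over Slfn9, 0.098 (SD 0.44) for Slfn8 over Slfn10-ps, 0.57 (SD 0.94) for Slfn10-ps over Slfn1 and 0.16 (SD 0.99) for Slfn1 over Slfn5, with permutation adjusted p of 0.250, 0.522, 0.122 and 0.592. The steps past the spread between libraries were thus those after Slfn2, after Slfn9 and before Slfn3. With the same counts set per kilobase of windows not shared with another gene, Slfn8 over Slfn10-ps turned to -0.059. Slfn10-ps over Slfn1 grew to 1.13 and passed the test. Only the length was changed here, and reads were not counted again. If shared reads had been counted, this length raises the genes that share most.

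**Figure D3:**
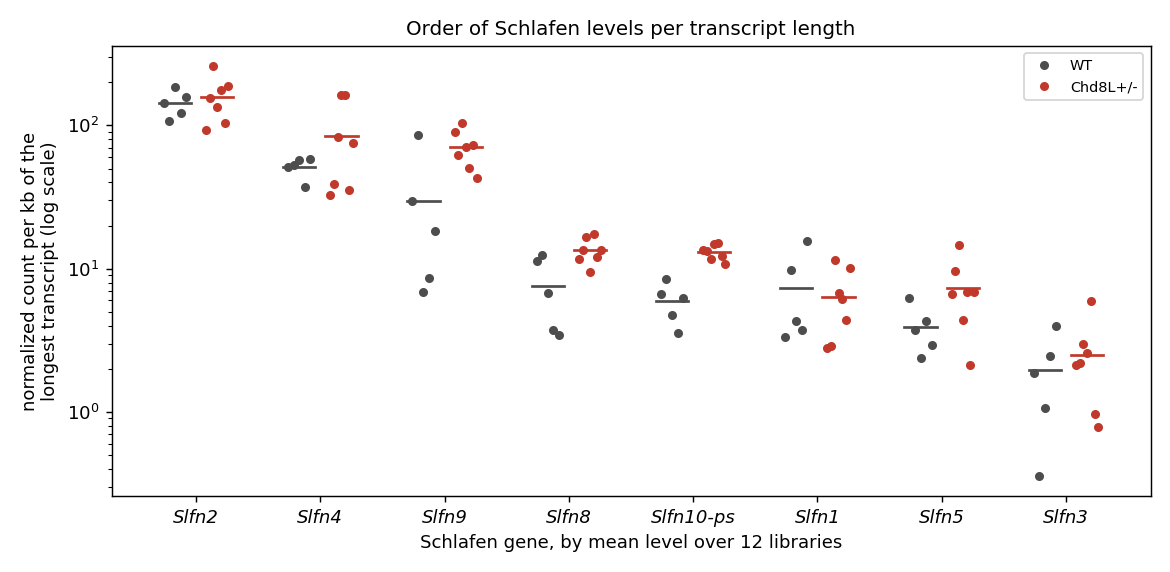
Normalized counts per kilobase of the longest transcript (vertical axis, log scale) for the 8 Schlafen genes in order of their mean, 1 point per library, WT in grey and Chd8L+/- in red, with a bar at each group mean. Slfn2 is highest at a mean of 153 and Slfn3 lowest at 2.27, and the middle and low genes overlap with their neighbours.

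Whether the genes vary together among animals of one genotype was asked with deviations from the genotype means of log2(value + 1), over 12 libraries and 21 pairs of the 7 fitted members, with permutations within genotypes. None of the 21 pairs passed an adjusted p of 0.05, with a lowest value of 0.541 by r and 0.431 by rho. The pair that passed unadjusted by r was Slfn9 and Slfn10-ps, with r = 0.77 and rho = 0.60 (permutation p = 0.0448 and 0.0992). By rho the pairs that passed unadjusted were Slfn1 with Slfn4 (rho = 0.68, permutation p = 0.0223) and Slfn2 with Slfn4 (rho = 0.67, permutation p = 0.0411). For Slfn9 and Slfn10-ps, r was 0.63 without the 2 libraries farthest from the median and 0.60 without WT replicate 2. Among Chd8L+/- libraries alone, r of this pair was 0.031. Of genes outside the family, 8.98% had an r with Slfn9 at least as high as the 0.77 over all libraries. In 5 of the 21 pairs r was at least 0.5, and these were Slfn9 with Slfn10-ps (0.77), Slfn8 with Slfn9 (0.56), Slfn8 with Slfn10-ps (0.52), Slfn1 with Slfn4 (0.52) and Slfn2 with Slfn4 (0.50). Of genes outside the family, 6.85%, 9.42%, 11.2% and 5.72% had an r at least as high with the first gene of the last 4 pairs. Without WT replicate 2, r of Slfn8 was 0.27 with Slfn9 and 0.29 with Slfn10-ps. Among Chd8L+/- libraries alone, the values for Slfn8 were -0.13 with Slfn9 and -0.21 with Slfn10-ps.

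The genes outside the family whose deviations were most like those of a member differed between members. For Slfn9 these were Gart (r = 0.98), an enzyme of purine synthesis, Uhrf1 (0.98), which maintains DNA methylation at replication, and Atad2 (0.97), a chromatin ATPase. For Slfn10-ps they were Cdc6 (0.93), which loads the replicative helicase, the chloride channel gene Cftr (0.92) and Clca3a1 (0.91). For Slfn2 they were Zbp1 (0.93), an interferon-stimulated sensor of nucleic acids, Ifit1bl1 (0.89) and Apol10a (0.88).

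The other members had neighbours of mixed kind. Slfn4 was most like Fam196a (0.97), Tpm2 (0.95) and Rsbn1l (0.94), and Slfn8 most like Gprasp1 (0.93), Nfxl1 (0.90) and 2810021J22Rik (0.90). Slfn5 was most like Mgat4a (0.87), Tmcc1 (0.86) and Tyk2 (0.86), the last a kinase of interferon receptors, and Slfn1 most like Fv1 (0.95), 2310009B15Rik (0.95) and Dus2 (0.92). Each is among the top 3 of 12801 genes over 12 libraries and is given as a description.

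After these values were seen, the deviations of the 7 members were also set against the mean of each of 9 gene lists, 63 relations in all. One passed an adjusted p of 0.05, that of Slfn9 with 17 genes of the replication stress response, among them the partners of SLFN11 at stressed forks, with r = 0.94 and rho = 0.94 (permutation p = 0.00046 and 0.00051, adjusted p = 0.0290 and 0.0321). Without the 2 libraries farthest from the median r was 0.83, and without WT replicate 2 it was 0.87 (rho = 0.92). Among the 7 Chd8L+/- libraries alone r was 0.70 and rho 0.82 (exact permutation p = 0.0817 and 0.0341). A correlation with this list at least as high was found for 215 of 12784 genes outside the list and the family (1.68%). The relation of Slfn10-ps with this list was weaker (r = 0.74, rho = 0.62, adjusted permutation p of r = 0.459) and was 0.061 among Chd8L+/- libraries alone.

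The relation of Slfn2 with the interferon-stimulated genes had r = 0.71 and rho = 0.64 (permutation p = 0.0194 and 0.0433). It did not pass the adjustment (adjusted permutation p of r = 0.407). Among the 7 Chd8L+/- libraries alone it was r = 0.81 and rho = 0.82 (exact permutation p = 0.0294 and 0.0341). The relation of Slfn9 with the interferon receptor and signalling genes was negative (r = -0.72, rho = -0.74). It did not pass either (permutation p = 0.0173 and 0.0222, adjusted permutation p of r = 0.407). None of the remaining relations passed the adjustment.

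**Figure D4:**
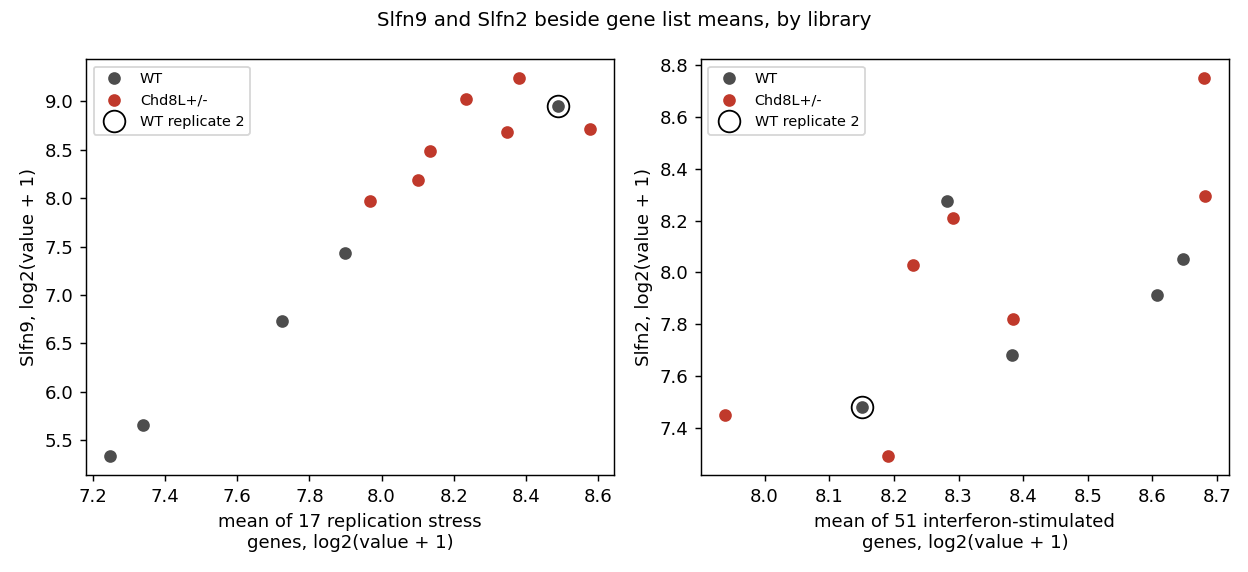
Level of Slfn9 against the mean of 17 replication stress genes (left) and of Slfn2 against the mean of 51 interferon-stimulated genes (right), all on the log2(value + 1) scale, 1 point per library, WT in grey, Chd8L+/- in red and WT replicate 2 ringed. Slfn9 tends to be higher where the list mean is higher, with r of 0.94 over the pooled deviations from the genotype means. Among Chd8L+/- libraries alone r of Slfn9 was 0.70. The points of Slfn2 are more spread, with a pooled r of 0.71.

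Lists of interferon-stimulated genes, interferon receptor and signalling genes and replication stress genes were then compared between genotypes, in the same fit and with no member in any list. Of 51 interferon-stimulated genes 0 passed the adjusted threshold in limma, 0 in edgeR and 2 in DESeq2, which called 6.44% of the genes it tested. With an unadjusted p at or under 0.05 there were 0 higher and 4 lower, beside 12.5% and 11.8% of all genes. These shares are the background for every list below. By sign alone 19 were higher and 32 lower, and the median log2 fold change was -0.058. The smallest p values were those of Usp18, the protease that removes ISG15 (496 ± 168 in WT, 243 ± 88.3 in Chd8L+/-, log2 fold change -1.02, adjusted p = 0.122), Ifi35 (-0.48, adjusted p = 0.125) and Sp100 (-0.55, adjusted p = 0.154).

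Of 16 genes for interferon receptors and their signalling, 0 passed in limma, 0 in edgeR and 3 in DESeq2 (6.44% of the genes it tested). Unadjusted, 0 were higher and 5 lower (12.5% and 11.8% of all genes), and the median was -0.15. Il10rb, a receptor chain shared by interleukin 10 and interferon lambda, was at 1778 ± 388 in WT and 1102 ± 202 in Chd8L+/- (log2 fold change -0.68, adjusted p = 0.121). Ifnar2, a chain of the type I interferon receptor, was at -0.57 (adjusted p = 0.128), and the signalling inhibitor Socs1 was at -1.08 (adjusted p = 0.129).

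Of the 17 replication stress genes tested, 0 passed in limma, edgeR or DESeq2, while 9 were higher (12.5% of all genes were) and 0 lower unadjusted, with a median of 0.42. Atr, the kinase that answers stalled forks, was at 128 ± 93.4 in WT and 241 ± 35.0 in Chd8L+/- (log2 fold change 1.16, adjusted p = 0.121). Its activator Topbp1 was at 0.90 (adjusted p = 0.121) and the clamp subunit Hus1 at 0.74 (adjusted p = 0.133). Without WT replicate 2, 9 of the 17 passed the adjusted threshold, as did 27.6% of all genes.

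Markers of the cells that the preparation can hold were measured beside these values. The 10 epithelial markers summed to between 178603 and 298651 normalized counts in WT and between 172785 and 269068 in Chd8L+/-, so the markers of the labelled cell type were abundant in every library. By sign 3 were higher and 7 lower, and the median was -0.20 on the log2 scale. There were 0 that passed in limma or edgeR and 1 in DESeq2 (Krt18 at -1.08, Tjp1 at 0.32 and Krt19 at 0.47, adjusted p = 0.121, 0.207 and 0.211). Of 19 genes of enterocyte differentiation 0 passed in limma or edgeR and 3 in DESeq2 (6.44% of the genes it tested). Unadjusted, 1 was higher and 4 lower (12.5% and 11.8% of all genes), and the median was -0.21. The sugar transporters Slc2a5 (-1.06) and Slc5a1 (-0.91) and the fatty acid carrier Fabp1 (-1.08) had the smallest p (adjusted p = 0.121, 0.129 and 0.121).

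Slfn1, Slfn2 and Slfn4 are expressed in leukocytes, and leukocyte RNA was present in every library. The 20 T and intraepithelial lymphocyte markers in the table summed to between 5858 and 10664 normalized counts in WT and between 4685 and 11098 in Chd8L+/-, with 0 higher and 1 lower (Ptprc, -0.64) unadjusted and a median of -0.073. Cd3e was at -0.30 and Cd8b1 at 0.40. The 10 B and plasma cell markers summed to between 2030 and 6832 in WT and between 757 and 19832 in Chd8L+/-. Without Cd74, the highest of them, the sums ranged from 505 to 2420 in WT and from 259 to 4809 in Chd8L+/-. By sign 0 were higher and 10 lower, while 51.4% of all genes were higher. Unadjusted, 0 passed in either direction, the median was -0.40, and Blk and Cd79b were at -0.74 and -0.52. No gene of either list passed in limma, edgeR or DESeq2.

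Of 18 tested genes of monocytes, macrophages and dendritic cells 15 had a log2 fold change above 0, as did 51.4% of all genes, and 6 were higher (12.5% of all genes) and 0 lower unadjusted. Their median was 0.59, and 0 passed in limma, 0 in edgeR and 2 in DESeq2. Itgam was at 83.9 ± 43.2 in WT and 215 ± 115 in Chd8L+/- (log2 fold change 1.35, adjusted p = 0.121), Cx3cr1 at 1.17 (adjusted p = 0.122) and Mpeg1 at 1.20 (adjusted p = 0.124). The sum of the list is mostly Plac8, and without it ranged from 5027 to 6202 in WT and from 4305 to 8963 in Chd8L+/-. Of 13 neutrophil markers 4 were in the table, at sums of 31.3 to 80.2 in WT and 58.3 to 136 in Chd8L+/-, and of the 3 tested 0 passed in limma, edgeR or DESeq2 and 1 was higher unadjusted (Mmp9 at 1.93, Ltf at 0.26 and Ly6g at 0.37). No marker of these lists found in the table was at 0 in every library. The part of the lymphoid and myeloid cells in the Schlafen values was not tested other than by the correlations with the list means, none of which passed the adjustment. Unadjusted, Slfn8 passed with the T and intraepithelial lymphocyte list (r = 0.64, rho = 0.68, permutation p = 0.0304 and 0.0167). Slfn2 passed with the same list by rho alone (rho = 0.63, permutation p = 0.0468). With the epithelial marker list, Slfn9 had a negative relation that passed unadjusted by r alone (r = -0.65, rho = -0.55, permutation p = 0.0360 and 0.0767). It did not pass the adjustment (adjusted permutation p of r = 0.453).

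Genes near the cluster were compared in the same fit. Within 500 kb, 59 genes are annotated, 21 were in the table and 18 were tested. Of these 0 passed in limma, edgeR or DESeq2. Unadjusted, 2 were higher and 1 lower (12.5% and 11.8% of all genes), and the median log2 fold change was 0.043. Nle1, a ribosome assembly factor on the outer side of Slfn5, was at 79.0 ± 48.7 in WT and 128 ± 26.3 in Chd8L+/- (log2 fold change 0.86, adjusted p = 0.131). The DNA ligase gene Lig3, on the same side, was at 0.43 (adjusted p = 0.154), and the chemokine gene Ccl9, beyond Slfn3, was at -0.53 (adjusted p = 0.184).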

How the data were processed

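RNA was measured in gut epithelial cells of 5 WT and 7 Chd8L+/- mice. The authors selected poly(A) RNA, read 75 bases from one end, aligned with Tophat2 to mm10, and used DESeq2. The deposited values are a normalized signal, the reads of a gene over the size factor of its library. The counter, annotation and use of strand are not given in the sources used here. Whole reads were recovered by dividing by the value of 1 read, and 100% of values came out whole within 0.01. For WT replicates 3 and 4 this value was close to 1. All columns were matched by library name, and 0 belonged to other samples. The deposited values were not raw counts, so the count test was run on recovered reads as an alternative.

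Genotypes were compared with limma 3.58.1 (R 4.3.3, trend, log2(value + 1), mean of at least 10, Benjamini-Hochberg adjustment). Alternatives were edgeR 4.0.16, DESeq2 1.42.0, other pseudocounts, filters and scalings, blocks, and leaving out each library. Levels were compared by exact sign-flip tests, and correlations by 100000 permutations within genotypes. Read sharing used GENCODE transcripts, and promoters were from RefSeq. The fits were tested on simulated data. The p-values measure the spread between animals.

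The members and lists were chosen with earlier results of these data known. The genes named are the members, Chd8, the 3 with the smallest p in each list and near the cluster, and the 3 most like each member. One gene of these is not reported here.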

Additional observations from a re-analysis of the deposited data

How the results depend on the processing

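With few animals and 1 WT library that stands apart, the counts of calls depend strongly on single libraries and on the tool, while the values of Slfn3 and Slfn1 rest on few reads. Over all alternatives the log2 fold change ranged from 1.24 to 2.32 for Slfn9, 0.99 to 1.29 for Slfn10-ps, 0.75 to 1.20 for Slfn8, 0.56 to 1.14 for Slfn5, 0.24 to 0.77 for Slfn4, -0.03 to 0.21 for Slfn2 (2 changes of sign in 23) and -0.37 to 0.21 for Slfn1 (5 in 22). The cause of the changes was not tested.

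Against 3 genes called in all (0 higher, 3 lower), edgeR called 5, DESeq2 811 (231 higher, 580 lower), the letter block 451 (175 higher, 276 lower), the number block, chosen after seeing the data, 0, and leaving out 1 library gave 0 to 3533, the last without WT replicate 2 (1789 higher, 1744 lower). The replicate block called 0 genes (2327 unadjusted), and 0 members. Replicate numbers do not pair the animals, with correlations of same-numbered deviations of 0.189, -0.344, -0.129, -0.171 and -0.228. DESeq2 and the letter block called 1 and 2 Schlafen genes, 2 and 1 interferon-stimulated genes, 3 and 2 interferon receptor and signalling genes, 3 and 1 enterocyte genes, 1 and 1 epithelial markers, and 2 and 1 monocyte, macrophage and dendritic cell genes, and the letter block called 1 replication stress gene. Leaving out 1 library gave 0 to 3 Schlafen, 0 to 8 interferon-stimulated, 0 to 5 interferon receptor, 0 to 9 replication stress, 0 to 3 enterocyte, 0 to 2 epithelial, 0 to 1 T cell, 0 to 8 monocyte, 0 to 1 neutrophil and 0 to 2 nearby genes, each highest without WT replicate 2. A minimum of 10 in every library left no neutrophil gene and no value for Slfn1.

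Of the levels, with the same counts per kilobase of unshared windows, Slfn8 over Slfn10-ps was -0.059 and Slfn10-ps over Slfn1 1.13. Leaving out 1 library gave 0.45 to 0.73 for Slfn10-ps over Slfn1 and -0.015 to 0.31 for Slfn1 over Slfn5, with 0.73 and -0.015 being those without WT replicate 5. Among Chd8L+/- libraries alone the covariation of Slfn8 was -0.13 with Slfn9 and -0.21 with Slfn10-ps.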
